A study of Mus musculus with 6 samples.

Results

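The 34 genes described here encode proteins of stress granules and of processing bodies (P-bodies), chosen as a list of symbols by protein function, with no value of the count table in the rule. All 34 were found among the 24062 gene symbols of the count table, 20 of them granule genes and 14 P-body genes, and all 34 were among the 13300 genes with enough reads to test. The RNA came from brown adipose tissue, a thermogenic fat, of male C57BL/6 mice aged 12 weeks. Of 6 libraries, 3 were labelled FAM195A heterozygous (titles RF1, RF3 and RE6, here heterozygous 1, 2 and 3) and 3 were labelled FAM195A Knock out (RF2, RF4 and RE9, here knockout 1, 2 and 3). Both groups therefore carry a disrupted FAM195A allele by their labels, and no library without one was analysed here. The sources used here do not give how the allele was made or at which temperature the mice were kept. The labels state 3 mice per genotype.

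Stress granules are assemblies of untranslated mRNA and protein that form in the cytoplasm when translation initiation is blocked, usually through phosphorylation of the initiation factor eIF2. G3BP1 and G3BP2 hold them together by binding RNA, CAPRIN1 favours their assembly and USP10 competes with CAPRIN1 for the same site on G3BP. P-bodies hold mRNAs that are repressed or on the way to decay, with the deadenylases, the decapping enzyme and the exonuclease that act in turn on an mRNA. FAM195A is described by the series as a stress granule protein. The comparison asks whether the transcripts of its granule neighbours, or those of the adjoining P-body machinery, differ when both copies of the gene are labelled as disrupted rather than 1.

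Reads counted in genes ranged from 18781401 to 20471963 in the heterozygous-labelled libraries and from 22418031 to 25084627 in the knockout-labelled ones. They made up 43.9% to 48.4% and 51.0% to 58.3% of their columns, lines that name no gene included. Both measures therefore differed with the genotype label. The transcript of the targeted gene did not separate the labels, and whether the allele removes it is not given: Fam195a was at 69.0, 70.5 and 103 CPM (heterozygous 1 to 3) against 50.5, 82.0 and 81.3 CPM (knockout 1 to 3). CPM is a gene's share of its library's gene reads, scaled by TMM to make libraries comparable. The log2 fold change of Fam195a was -0.18 (SE 0.241, adjusted p = 0.896 by edgeR's quasi-likelihood test). Every direction below is therefore that of the knockout-labelled libraries relative to the heterozygous-labelled ones. All 11 brown adipocyte markers had reads in every library and summed to 20965 to 21844 CPM in the heterozygous-labelled group and 20906 to 26045 CPM in the knockout-labelled group. Singly, 5 of the 11 had log2 fold changes above 0 and 6 below. Elovl3 passed an adjusted p of 0.05 (log2 fold change 1.03, edgeR quasi-likelihood adjusted p = 0.0418), as 0.586% of all genes tested did. Elovl3 and Cidea were higher without overlap in the knockout-labelled group (18.2% of the 11, with 8.11% of all genes tested higher in this way). All 26 skeletal muscle markers also had reads in every library, and summed to 12941 to 37621 CPM against 4555 to 8082 CPM, so that muscle RNA moved with the genotype label. The summed levels overlapped between the groups for macrophage, lymphocyte, endothelial, fibroblast and nerve markers. The 2 libraries titled RE, heterozygous 3 and knockout 3, stand apart from the 4 titled RF in many genes; the labels do not say what the prefix means. In bulk tissue, fewer cells of a type and less RNA per cell cannot be told apart.

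No granule or P-body gene passed the test between the genotype labels. With edgeR's quasi-likelihood test and Benjamini-Hochberg adjustment over all genes tested, 0 of 20 granule genes and 0 of 14 P-body genes were called at an adjusted p of 0.05, against 0.586% of all genes tested (78 genes, 0.0526% higher and 0.534% lower). Across all genes the count became 0 on leaving out any of heterozygous 2, knockout 1 and knockout 2, 8 on leaving out heterozygous 3, and 400 on leaving out heterozygous 1. At an unadjusted p under 0.05 the count was 1 of 34, Usp10, against 12.1% of all genes tested (4.05% higher and 8.04% lower), and DESeq2 and limma-voom also called 0 of 34 after adjustment (1 and 3 at an unadjusted p under 0.05). The smallest adjusted p among the 34 was 0.303.

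The fold changes of both sets of genes lay close to 0. The median log2 fold change was -0.02 for the granule genes and -0.03 for the P-body genes, beside 0.02 for all genes tested, and the gap between the 2 sets was 0.01. For each library, the median difference in log2 CPM from the heterozygous-labelled mean was also taken. Between replicates it varied with a pooled SD of 0.127 for granule genes and 0.0791 for P-body genes. That is the spread of single libraries and not the error of the difference between groups. Of the granule genes, 9 had fold changes above 0 and 11 below; of the P-body genes, 5 were above and 9 below. Apart from Usp10, every one of the 34 lay between -0.33 (Zfp36l1) and 0.27 (Zfp36) on the log2 scale. A change past 0.5 either way was seen in 1 of 34, against 15.3% of all genes tested and 10.9% of tested genes whose average log2 CPM reached 3.

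Within each library, the mean log2 CPM of the granule genes exceeded that of the P-body genes by 1.94, 2.11 and 1.80 in heterozygous 1, 2 and 3 and by 2.02, 2.01 and 2.02 in knockout 1, 2 and 3. The heterozygous-labelled values lay on both sides of the knockout-labelled ones. These means are not per length, so they compare libraries and not the level of 1 set with the other.

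The intervals show what size of change these libraries could still hide. The 95% interval lay inside a 2-fold change in either direction for 30 of 34 genes, 18 of the granule and 12 of the P-body set; the share was 71.2% of all genes tested and 84.6% of those whose average log2 CPM reached 3. The 4 whose intervals reached further were Usp10, Fxr2, Xrn1 and Zfp36. Inside 1.5-fold lay 18 of 34 intervals, beside 36.0% of all genes tested and 49.7% of those at that level. For the other 16 genes the interval does not leave out a change of that size. These intervals include variation between mice and not only the error of measurement.

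**Figure D1:**
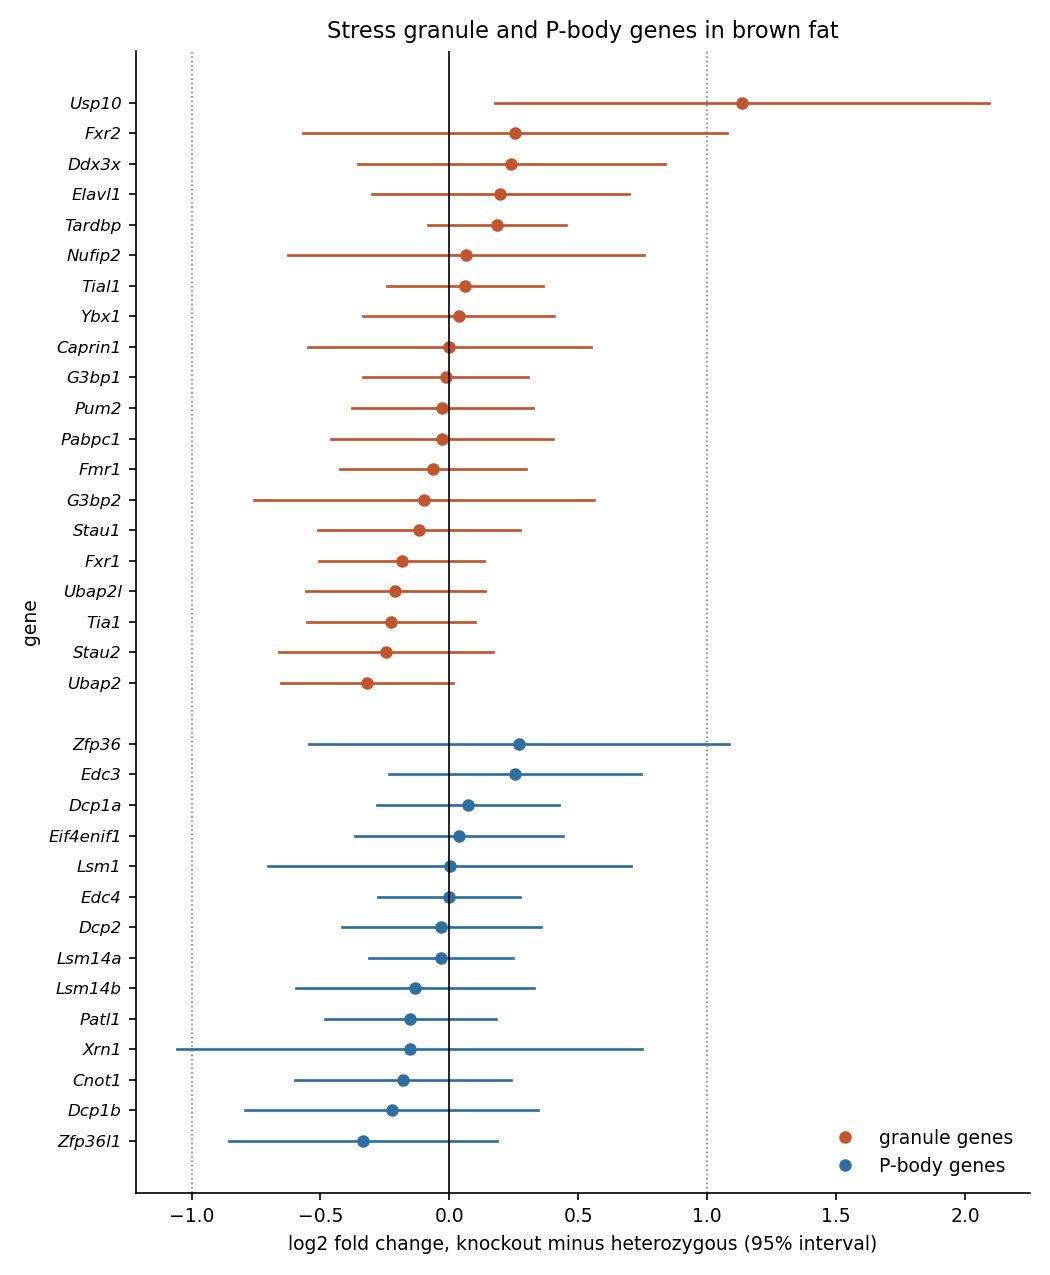
Log2 fold change of each gene, knockout-labelled minus heterozygous-labelled (point), with its 95% interval (line), for 20 granule genes (orange) and 14 P-body genes (blue); dotted lines mark a 2-fold change. Only the interval of Usp10, 0.18 to 2.09, leaves out 0, and 30 of 34 intervals lie between the dotted lines.

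**Figure D2:**
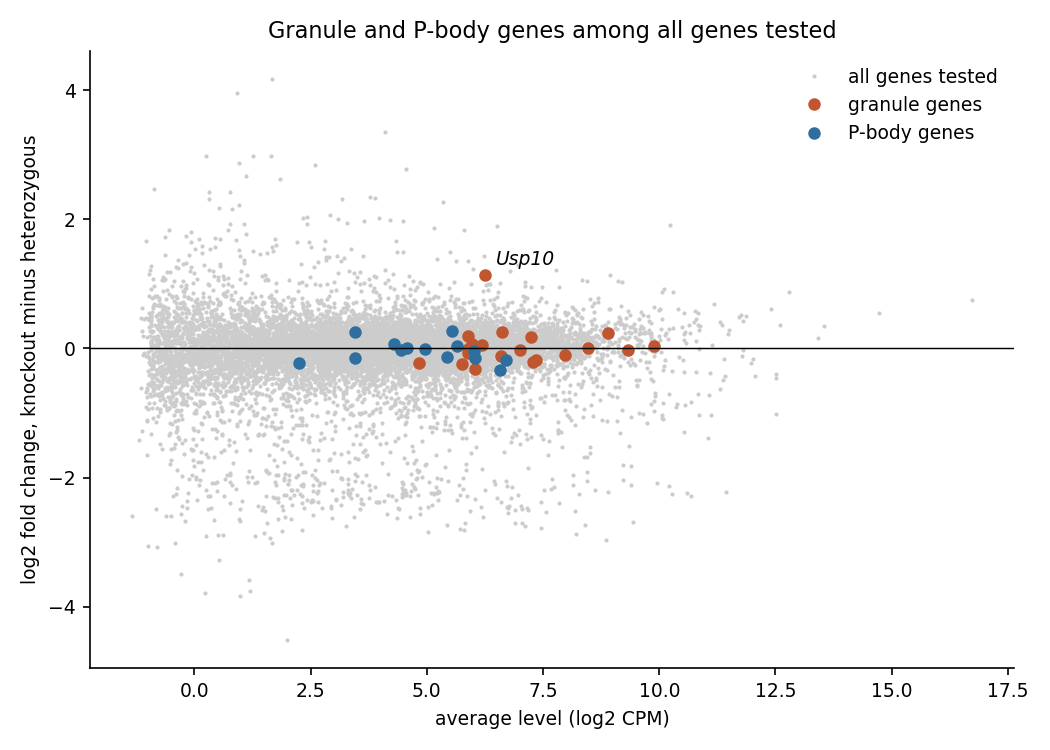
Log2 fold change against average level (log2 CPM) for all 13300 genes tested (grey), the granule genes (orange) and the P-body genes (blue). The 34 genes form a band around 0 with Usp10 above it at 1.13.

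The granule hub is built from G3BP1 and G3BP2 and the proteins that bind them. G3bp1 was at 57.4, 66.1 and 54.5 CPM (heterozygous 1 to 3) against 63.1, 61.3 and 51.8 CPM (knockout 1 to 3). The groups overlapped, and the log2 fold change was -0.01 with an interval of -0.335 to 0.306. G3bp2, the paralog that dominates in this tissue, was at 272, 333 and 174 CPM against 284, 268 and 175 CPM (log2 fold change -0.10, interval -0.757 to 0.559). Its low values were the RE-titled library of each group. Caprin1, whose product joins G3BP in condensing RNA, stood at 417, 400 and 243 CPM against 411, 354 and 297 CPM. Its group means were the same to 3 digits (354 CPM each), again with the RE-titled library lowest in both groups.

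Usp10 was the member with the largest difference. Its product is the deubiquitinase that binds G3BP and opposes granule assembly. Usp10 was at 48.9, 46.1 and 48.4 CPM in heterozygous 1, 2 and 3, a spread of 3.17% of the mean, and at 73.7, 57.9 and 183 CPM in knockout 1, 2 and 3. All 3 knockout-labelled libraries were above all 3 heterozygous-labelled ones, and knockout 3 stood far above the other 5. The log2 fold change was 1.13 (SE 0.408, interval 0.175 to 2.09, edgeR quasi-likelihood test, unadjusted p = 0.0265, adjusted p = 0.303), a 2.20-fold difference that did not pass. Without knockout 3 the log2 fold change was 0.45 (adjusted p = 0.213). Within the RF-titled libraries the log2 ratio was 0.46 and in the RE-titled pair, 1 library against 1, it was 1.91. Muscle markers were lower in all 3 knockout-labelled libraries, and their part in this difference was not tested.

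Because Usp10 is the member that stood furthest from the others, its RefSeq promoter window (GRCm38.p6, 250 bases before to 50 after the annotated start, plus strand, chr8:119910110-119910409) is shown, with matches to the searched motifs in capitals. The window was searched on both strands for the TATA element (TATAAA), the NF-Y box (CCAAT), the GC box GGGCGG, the ETS core CCGGAA, the palindromic NRF1 element, the E-box CACGTG, the cAMP response element TGACGTCA with its core TGACG, the serum response element and the ERR element TCAAGGTCA. The core TGACG lies within the full element, so a full match counts for both.
Usp10: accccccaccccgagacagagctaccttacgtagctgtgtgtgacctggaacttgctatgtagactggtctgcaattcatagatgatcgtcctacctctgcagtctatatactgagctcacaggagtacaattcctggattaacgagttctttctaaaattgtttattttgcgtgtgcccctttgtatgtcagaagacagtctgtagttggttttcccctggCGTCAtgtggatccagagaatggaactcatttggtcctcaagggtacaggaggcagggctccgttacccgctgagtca
The 1 match was the core TGACG, read on the opposite strand, which 29.8% of the windows of tested genes hold. The window's GC content was 48.3% and its CpG ratio, observed over expected, 0.457, below the medians of 60.7% and 0.741 for windows of tested genes. GENCODE also lists Usp10 transcripts that begin further inside the gene, and the start in use cannot be read from these counts.

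Ubap2 and Ubap2l encode paired proteins that bind G3BP and mRNA in granules. Ubap2 was at 67.0, 83.2 and 69.5 CPM (heterozygous 1 to 3) against 63.3, 51.6 and 61.1 CPM (knockout 1 to 3). The groups did not overlap, and the log2 fold change was -0.32 (interval -0.654 to 0.0137, edgeR quasi-likelihood adjusted p = 0.444). Ubap2l was at 180, 175 and 145 CPM against 164, 131 and 137 CPM, with overlapping groups and a log2 fold change of -0.21. Nufip2, an RNA-binding partner of G3BP, ranged from 42.6 to 93.1 CPM, and its highest value in each group was the RE-titled library.

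Over all 34 genes, the groups did not overlap for 3, namely Usp10 and Tardbp, higher in the knockout-labelled libraries, and Ubap2, lower. That is 8.82% of the genes, against 18% of all genes tested (8.11% higher and 9.89% lower). None of the 14 P-body genes had groups that did not overlap. The windows of Ubap2 (minus strand, chr4:41275086-41275385) and Tardbp (minus strand, chr4:148626947-148627246), the 2 others of these 3, are shown for comparison with that of Usp10, with the same motifs in capitals.
Ubap2: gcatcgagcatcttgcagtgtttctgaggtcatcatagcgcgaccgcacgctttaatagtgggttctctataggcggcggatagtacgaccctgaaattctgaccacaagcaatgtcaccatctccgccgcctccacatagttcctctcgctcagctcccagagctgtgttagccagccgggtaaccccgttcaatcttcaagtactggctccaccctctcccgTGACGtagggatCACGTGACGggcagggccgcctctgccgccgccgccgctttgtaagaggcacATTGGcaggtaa
Tardbp: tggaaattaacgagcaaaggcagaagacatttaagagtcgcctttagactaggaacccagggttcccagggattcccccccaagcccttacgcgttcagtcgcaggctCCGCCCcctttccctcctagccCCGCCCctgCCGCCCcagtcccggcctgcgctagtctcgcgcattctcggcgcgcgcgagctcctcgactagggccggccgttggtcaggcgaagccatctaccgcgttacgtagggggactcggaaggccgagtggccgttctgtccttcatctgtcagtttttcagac
The Ubap2 window holds an E-box that overlaps a TGACG core, another TGACG core and an NF-Y box on the opposite strand. The Tardbp window holds 3 GC boxes on the opposite strand, and its GC content was 62.0%.

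The remaining granule genes are ordered by what their products do. Tia1 and Tial1 encode related proteins that bind uridine-rich RNA and silence translation. Tia1 was at 32.6, 26.2 and 32.9 CPM (heterozygous 1 to 3) against 25.8, 25.4 and 27.1 CPM (knockout 1 to 3) (log2 fold change -0.23, interval -0.552 to 0.0981). Its groups overlapped through heterozygous 2 alone. Tial1 averaged 71.8 CPM against 74.9 CPM, with a log2 fold change of 0.06 (SE 0.130).

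The fragile X family, Fmr1, Fxr1 and Fxr2, encodes RNA-binding proteins that repress translation and enter granules. Their log2 fold changes were -0.06, -0.18 and 0.25, and none had groups that did not overlap. Fxr2 was at 88.8, 111 and 69.3 CPM against 127, 140 and 54.9 CPM. It was higher in both knockout-labelled RF libraries than in the heterozygous-labelled ones and lower in the RE-titled one, with log2 ratios of 0.42 and -0.33 within the prefixes.

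Pabpc1 binds the poly(A) tail, Ybx1 coats mRNA and Ddx3x is an RNA helicase of translation initiation. Ddx3x, encoded on the X chromosome, was at 442, 479 and 397 CPM (heterozygous 1 to 3) against 452, 372 and 732 CPM (knockout 1 to 3). Knockout 3 stood above the other 5, and without it the log2 fold change of 0.24 became -0.10. Ybx1 stayed within 940 to 943 CPM in the 3 heterozygous-labelled libraries and was at 878, 881 and 1136 CPM in the knockout-labelled ones, again with knockout 3 highest. Pabpc1 followed the same order, with 556 and 542 CPM in knockout 1 and 2 and 798 CPM in knockout 3, against 619 to 660 CPM in the heterozygous-labelled group. For both the log2 fold change was near 0, at 0.04 and -0.03.

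Tardbp encodes TDP-43, which binds UG-rich RNA. It was at 143, 146 and 136.5 CPM (heterozygous 1 to 3) against 168, 163 and 153 CPM (knockout 1 to 3). The groups did not overlap, but the difference of 0.18 on the log2 scale (interval -0.083 to 0.451, edgeR quasi-likelihood adjusted p = 0.661) did not pass. It was also above 0 without each library in turn, at 0.15 to 0.21. Its exons share 1817 bases with Masp2 on the opposite strand, which stood at 0.846 and 0.915 CPM in the groups. Stau1 and Stau2, which bind double-stranded RNA, had log2 fold changes of -0.12 and -0.25. Elavl1, the HuR protein that binds AU-rich RNA, was at 0.20, and Pum2, which binds the Pumilio element and represses translation, at -0.03.

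**Figure D3:**
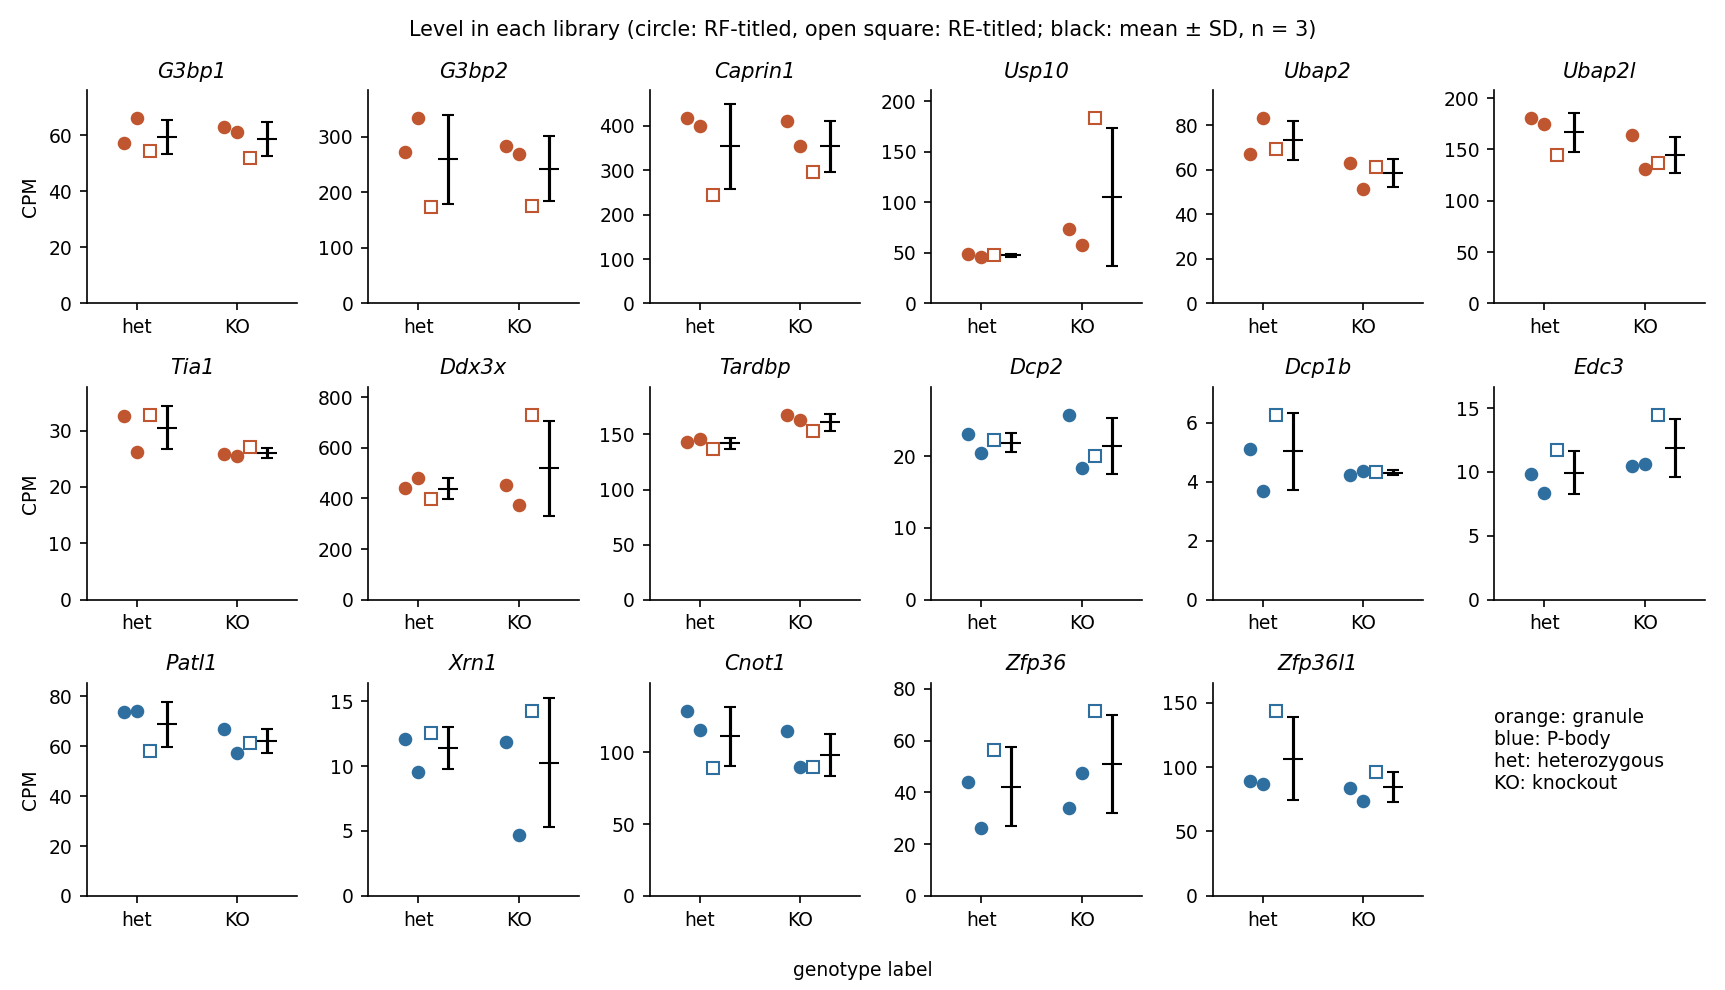
CPM of 17 genes in each library by genotype label (circles RF-titled, open squares RE-titled; black, mean ± SD, n = 3 per group; granule genes orange, P-body genes blue; each axis starts at 0). Usp10 reaches 183 CPM in the RE-titled knockout library, and for genes such as G3bp2 and Caprin1 the RE-titled library is the lowest of each group.

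P-body genes were described from deadenylation to decay. Cnot1, the scaffold of the CCR4-NOT deadenylase, was at 129, 116 and 88.8 CPM (heterozygous 1 to 3) against 115, 89.9 and 89.3 CPM (knockout 1 to 3). The groups overlapped, and the log2 fold change was -0.18 (interval -0.599 to 0.240). The translational repressors Lsm14a, Lsm14b and Eif4enif1, the last of which binds the cap-binding protein eIF4E, had log2 fold changes of -0.03, -0.13 and 0.04. Lsm14a varied little, between 61.7 and 73.1 CPM over the 6 libraries.

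Decapping needs the enzyme DCP2, its cofactors DCP1A and DCP1B, the enhancers EDC3 and EDC4, and PATL1 and the LSM1 ring, which mark deadenylated mRNA. Dcp2 was at 23.1, 20.4 and 22.2 CPM (heterozygous 1 to 3) against 25.8, 18.4 and 20.1 CPM (knockout 1 to 3) (log2 fold change -0.03, interval -0.418 to 0.354). The knockout-labelled libraries enclosed the range of the others. Dcp1b, the lowest of the 34 genes in CPM, was at 5.12, 3.68 and 6.28 CPM against 4.21, 4.37 and 4.34 CPM. Here the heterozygous-labelled libraries enclosed the others, and the log2 fold change was -0.22.

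Edc3 was at 9.82, 8.32 and 11.7 CPM (heterozygous 1 to 3) against 10.5, 10.7 and 14.5 CPM (knockout 1 to 3), with a log2 fold change of 0.25 (interval -0.236 to 0.743). Its groups overlapped through heterozygous 3, and the RE-titled library was the highest of each group. Edc3 and Clk3, the latter at 57.4 and 55.6 CPM, share 1284 exon bases on opposite strands. Patl1 was at 73.9, 74.3 and 58.2 CPM against 67.1, 57.4 and 61.4 CPM, a log2 fold change of -0.15. Edc4, Dcp1a and Lsm1 were at -0.002, 0.07 and 0.002, and for Edc4, the scaffold that joins the enzyme to its cofactors, the interval of -0.277 to 0.273 was the narrowest of the P-body set.

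Xrn1, the exonuclease that degrades decapped mRNA from its 5′ end, had the widest interval of the P-body set. It was at 12.1, 9.53 and 12.6 CPM (heterozygous 1 to 3) against 11.8, 4.68 and 14.3 CPM (knockout 1 to 3). The low value was knockout 2, and the knockout-labelled group both began below and ended above the other. The log2 fold change was -0.15 (interval -1.06 to 0.747) and 0.20 without knockout 2.

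Zfp36 and Zfp36l1 encode proteins that bind AU-rich elements and recruit the deadenylase. Zfp36, an immediate early gene, was at 44.2, 26.3 and 56.3 CPM (heterozygous 1 to 3) against 33.9, 47.6 and 71.5 CPM (knockout 1 to 3) (log2 fold change 0.27, interval -0.543 to 1.09). Zfp36l1 was at 89.4, 86.6 and 144 CPM against 84.0, 73.3 and 96.3 CPM (log2 fold change -0.33, interval -0.855 to 0.186). In both genes the groups overlapped and the RE-titled library was the highest of each group. Without heterozygous 3 the difference of Zfp36l1 was -0.06.

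The element these proteins bind, and that of PUM2, were looked for in the members' own 3′ UTRs, because both proteins are themselves members. The AU-rich nonamer TTATTTATT was present in 5 of 34 3′ UTRs of principal transcripts (14.7%), against 7.39% of the 12298 tested genes with such a transcript. The sites of Zfp36, Zfp36l1, Edc3 and Fmr1, at chr7:28376952-28376978 (minus), chr12:80108168-80108194 (minus), chr9:57750554-57750580 (plus) and chrX:68717205-68717231 (plus) of GRCm38, are shown as DNA with 9 flanking bases and the nonamer in capitals.
Zfp36: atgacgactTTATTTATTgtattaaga
Zfp36l1: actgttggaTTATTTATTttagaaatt
Edc3: gcttctagcTTATTTATTggcttgcct
Fmr1: gatttctagTTATTTATTctgggaatg
The fifth, Elavl1, held 8 matches close together, most of them overlapping. A match is a sequence and not a measured site.

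Across the tested genes, those with the nonamer did not stand apart in fold change. The 909 genes with 1 or more nonamers had a median log2 fold change of -0.004, beside 0.022 for those with none, and 1 of them fell at the threshold. The Pumilio element TGTANATA was present in 9 of 14 P-body and 5 of 20 granule 3′ UTRs, together 41.2%, against 25.1% of tested genes. The 3082 genes with it had a median of -0.03, those with 3 or more had -0.07 (305 genes), and those with none had 0.04. The order was not the same in each prefix: for the 305 genes the RF-titled libraries gave a median log2 ratio of -0.14 and the RE-titled pair 0.06. Longer 3′ UTRs hold more of either element, and length was not held fixed here.

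Scaled by transcript length, granule transcripts were more abundant than P-body transcripts. The median level was 20.6 RPKM (CPM per kilobase of the longest principal transcript) for granule genes and 10.7 RPKM for P-body genes, beside 6.65 RPKM for all tested genes with such a transcript. Of 20 granule genes 19 were above that background median, and of 14 P-body genes 8 were. Ybx1 led with 585 ± 58 RPKM (SD, n = 6), followed by Pabpc1 with 227 ± 32.8 and Ddx3x with 102 ± 27.7. Some decapping and decay genes were at the bottom, with Dcp2 at 2.52 ± 0.303, Xrn1 at 1.97 ± 0.613 and Edc3 at 1.91 ± 0.365 RPKM. Other decapping genes stood higher, such as Patl1 at 15.5 RPKM. Dcp1b was last at 1.41 ± 0.276 RPKM.

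In that order of levels, 28 of 33 pairs of neighbouring genes had ranges over the 6 libraries that overlapped. Such overlap does not settle the order within a library: Ubap2l was above its neighbour Stau1 in each of the 6. The steps without overlapping ranges at this length lay below Ybx1, Pabpc1, G3bp1, Tia1 and Dcp1a. The step below Tia1 depends on the length: with merged exons Tia1 was at 1.80 RPKM, under Dcp1a at 2.36 and Dcp2 at 2.49. With the merged length of all annotated exons in place of the principal transcript, the medians were 14.9 and 6.89 RPKM for granule and P-body genes, and 8 genes moved by more than 5 places, Ubap2l the furthest, by 13.

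**Figure D4:**
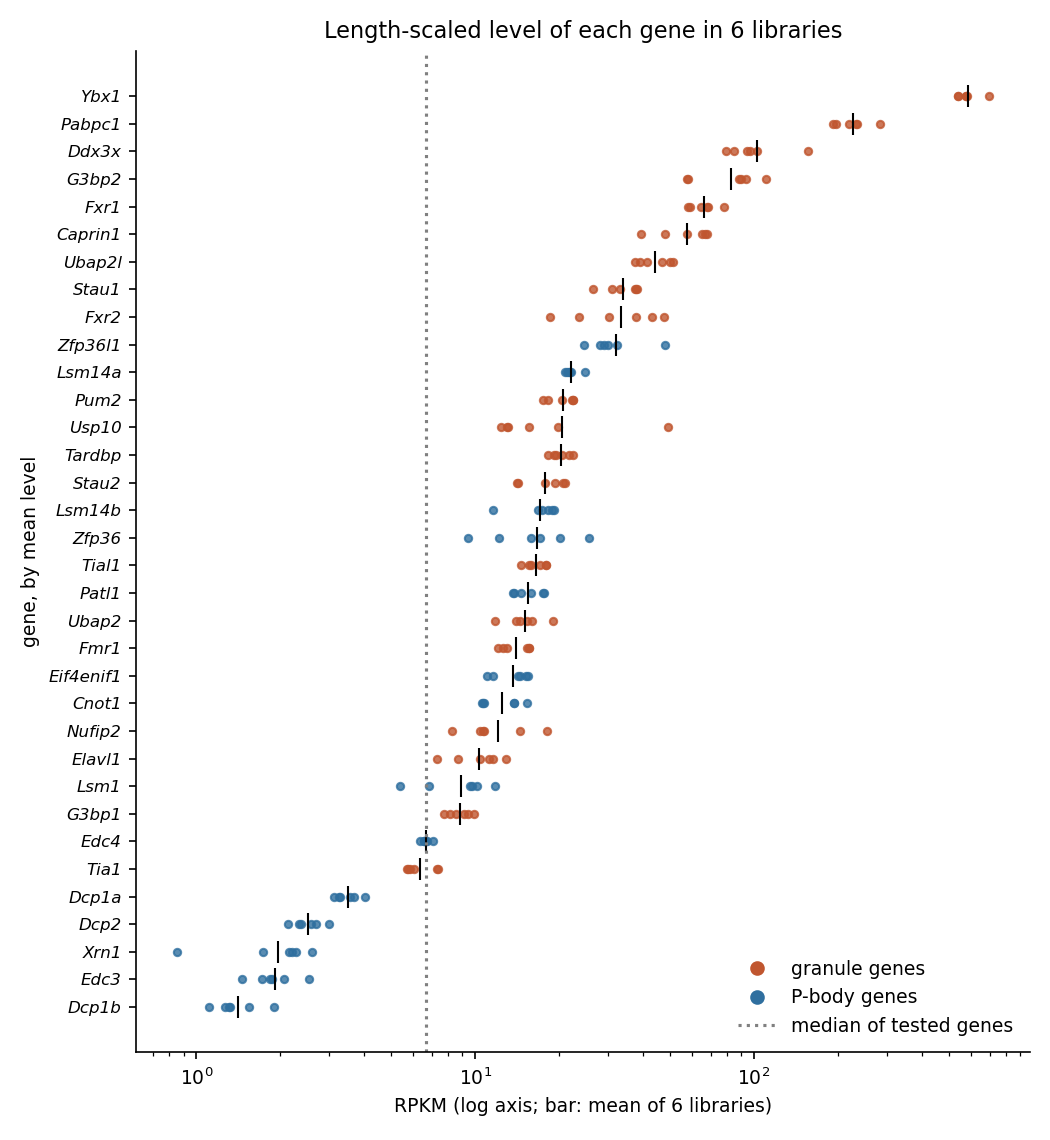
RPKM of each gene in the 6 libraries (points, log axis) with the mean (bar), granule genes in orange and P-body genes in blue, ordered by mean; the dotted line is the median of tested genes, 6.65 RPKM. Ybx1 and Pabpc1 lie apart at the top, and with principal transcript lengths the 5 lowest genes all belong to the P-body set.

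The balance between paralogs, and of Usp10 and Caprin1 to their binding partner G3bp1, was compared within each library, where depth and scaling cancel. G3bp2 exceeded G3bp1 by 9.39-fold per length in the heterozygous-labelled group and 8.97-fold in the knockout-labelled one. Fxr1 exceeded Fmr1 by 4.91-fold and 4.51-fold, and Tial1 exceeded Tia1 by 2.37-fold and 2.88-fold. These sizes depend on the transcript length used: with merged exons, G3bp2 exceeded G3bp1 by 3.46-fold and 3.31-fold and Tial1 exceeded Tia1 by 5.37-fold and 6.54-fold. Of 11 ratios, 7 moved by over 1.5 times, and for 3 the order turned (Ubap2l to Ubap2, Lsm14a to Lsm14b and Usp10 to G3bp1). The comparison of a ratio between the groups does not depend on length. The Zfp36l1 to Zfp36 ratio was 1.89, 3.08 and 2.38 in heterozygous 1, 2 and 3 and 2.31, 1.44 and 1.26 in knockout 1, 2 and 3, with overlapping groups. The Usp10 to G3bp1 ratio was 1.53, 1.25 and 1.598 against 2.10, 1.70 and 6.36, and was the only 1 of 11 ratios whose groups did not overlap (two-sided exact permutation p = 0.1, which is the floor for 3 libraries against 3; 0.733 after Benjamini-Hochberg adjustment over 11 ratios). With G3bp1 at a log2 fold change of -0.01, the Usp10 to G3bp1 ratio mostly restates the Usp10 difference. The Caprin1 to G3bp1 ratio was 6.32 and 6.51 in the groups (exact permutation p = 0.9).

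The title prefix separated these genes more often than the genotype label did, as it did over all genes tested (34.1% against 18%). The splits are unlike, 2 libraries against 4 and 3 against 3, so the 2 shares cannot be compared directly. Both RE-titled libraries lay outside the range of all 4 RF-titled ones for 20 of 34 genes (58.8%), against 34.1% of all genes tested. Of these, 12 were lower in the RE-titled libraries (17.8% of all genes tested were), among them G3bp1, G3bp2, Caprin1, Fmr1, Fxr2, Elavl1, Lsm1, Lsm14b and Cnot1. The 8 that were higher (16.3% of all genes tested) were Pabpc1, Ybx1, Nufip2, Stau2, Edc3, Xrn1, Zfp36 and Zfp36l1. Markers moved with the same prefix: 6 of 11 brown adipocyte markers were lower in both RE-titled libraries, including Ucp1, Ppargc1a and Dio2, and 1, Adipoq, was higher, while 8 of 10 macrophage markers and 6 of 7 fibroblast markers were higher. The macrophage marker Cx3cr1 was lower in both RE-titled libraries, at 0.554 and 0.323 CPM against 1.21 to 2.11 CPM. The summed brown adipocyte markers of the RE-titled libraries, 21071 and 21986 CPM, lay within the range of the RF-titled ones. Fabp4 alone gave 11670 and 12344 CPM of these sums. The mean log2 CPM of the same 11 markers was 8.81 and 9.02 in the RE-titled libraries, below the 9.31 to 9.52 of the RF-titled ones. The part of these cell types in the difference was not tested.

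The genotype difference also varied with the prefix. In 18 of 34 genes (52.9%) the RE-titled pair and the RF-titled libraries gave log2 ratios of opposite sign, as in 39.7% of all genes tested. Among granule genes the RF-titled libraries gave a median of -0.12 and the RE-titled pair one of 0.08, and among P-body genes these were -0.01 and 0.04. With 1 library per label in the RE pair, this difference was not tested. Usp10, Tardbp, Elavl1, Zfp36 and Edc3 were among the genes above 0 in both, and Ubap2, Tia1, Fxr1, Ubap2l and Zfp36l1 among those below 0 in both.

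**Figure D5:**
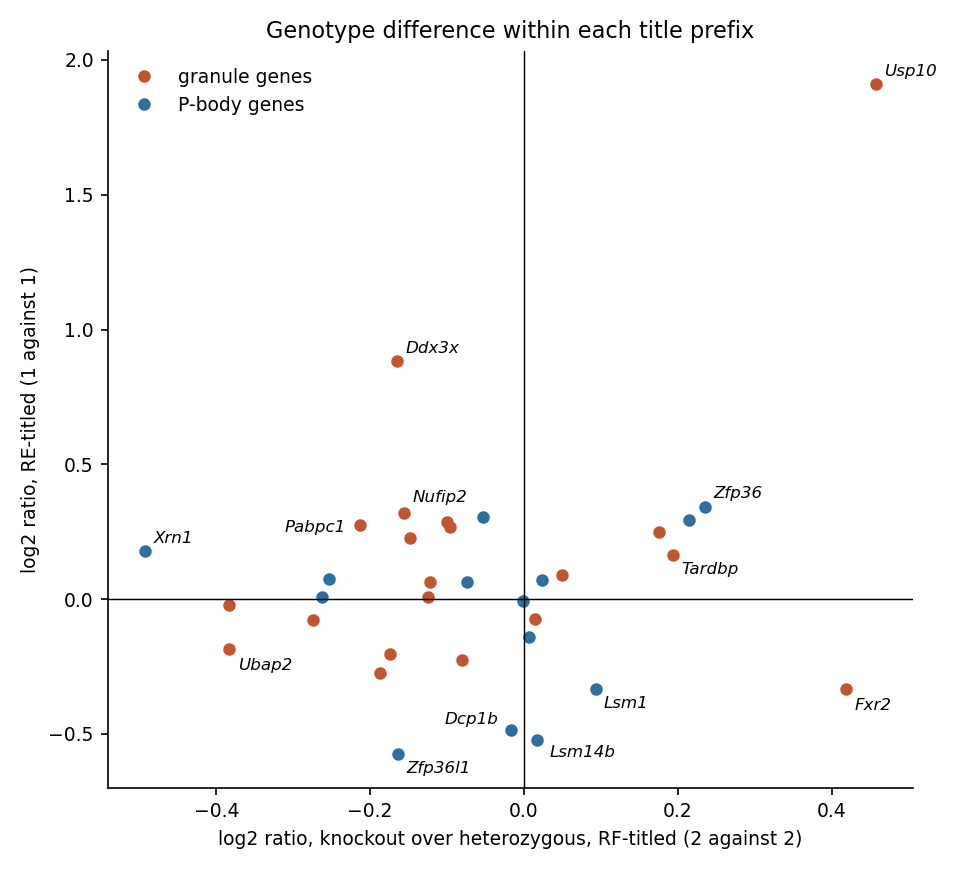
Log2 ratio of knockout-labelled over heterozygous-labelled level within the RF-titled libraries (x axis, 2 against 2) and in the RE-titled pair (y axis, 1 against 1) for granule (orange) and P-body (blue) genes. Points in the upper left and lower right, such as Ddx3x at -0.16 and 0.88, have opposite signs; Usp10 lies alone at 0.46 and 1.91.

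Other genes of the same machinery, taken from lists chosen by function, gave 0 calls as well. Of 30 other granule genes, 0 passed and the median log2 fold change was -0.08. Hnrnpa2b1, an RNA-binding protein of the hnRNP family, was at 715 ± 2.81 against 599 ± 49.1 CPM (SD, n = 3 each), without overlap, and its log2 fold change was -0.26 (edgeR quasi-likelihood adjusted p = 0.560). Caprin2, the paralog of Caprin1, was at -0.38 with overlapping groups.

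Of 32 other P-body and decay genes, 0 passed, with a median of -0.04. Eif4e2, a cap-binding protein of translational repression, was at 98.5, 101 and 78.4 CPM (heterozygous 1 to 3) against 117, 121 and 125 CPM (knockout 1 to 3) (log2 fold change 0.39, edgeR quasi-likelihood adjusted p = 0.285), without overlap. Tob1 and Btg2, which bind the deadenylase, and Zfp36l2, the third member of the Zfp36 family, were at -0.36, 0.27 and -0.29. Of 9 tested genes of microRNA repression 0 passed, the median was -0.20, and the smallest p belonged to Tnrc6c at -0.29, Ago4 at -0.33, Ago3 at -0.28 and Mov10 at -0.20.

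The kinases and phosphatase subunits that control eIF2, and with it granule formation, were listed with Eif2s1, the eIF2 subunit they act on. All 7 of these genes had log2 fold changes above 0, as 53.1% of all genes tested did. None of the 7 passed, and the median was 0.24. The groups did not overlap, with the knockout-labelled libraries higher, for 3 of 7, beside 8.11% of all genes tested: Eif2ak4 or GCN2, the kinase activated by amino acid lack (14.0 ± 0.981 against 17.7 ± 0.831 CPM, SD, n = 3 each; edgeR quasi-likelihood adjusted p = 0.376), Eif2ak3 or PERK, the kinase of the endoplasmic reticulum (18.2 ± 1.47 against 22.3 ± 0.795 CPM), and Eif2s1, the phosphorylated subunit itself (79.1 ± 6.63 against 93.6 ± 2.24 CPM). Ppp1r15a, the stress-induced phosphatase subunit, was at 0.41 with overlapping groups. Eif2ak1, Eif2ak2 and Ppp1r15b were at 0.001, 0.15 and 0.09.

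The paralog of the targeted gene, Fam195b, was at 13.02, 16.9 and 18.6 CPM (heterozygous 1 to 3) against 18.3, 19.4 and 17.8 CPM (knockout 1 to 3). Its log2 fold change of 0.19 (edgeR quasi-likelihood adjusted p = 0.80) did not pass, and the groups overlapped.

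The 34 genes are spread over 16 chromosomes and share mostly CpG-rich promoters. RefSeq promoter windows were found for 29 of them (40 windows, since some have several starts), and not for Pabpc1, Stau2, Lsm1, Dcp2 and Cnot1. A GC content over 55% with a CpG ratio over 0.65 was met by 33 of 40 windows (82.5%), against 53.8% of the 12766 windows of tested genes. A match to the TATA element was in 2 of 40, those of G3bp1 and Zfp36l1 (5% against 7.57%). The G3bp1 match is on the opposite strand, at the end of the window furthest from the start. Here too a match is a sequence and not a measured site. The ETS core was in 7 of 14 windows of P-body genes and 4 of 26 of granule genes, against 25.9% of windows of tested genes. The 14 windows come from 11 genes and the 26 from 18. Among the 7 are 2 overlapping windows of Eif4enif1 that hold the same match, so these windows are not independent. The NRF1 element was in 4 of 40, those of Tia1, G3bp2 and 2 overlapping windows of Fmr1, against 2.01%. This G3bp2 window lies at -54487 bases from the principal start, and the G3bp2 windows nearer that start hold no NRF1 element. It is also among the granule windows with the ETS core. Neither the full cAMP response element nor the serum response element was found in any of the 40.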

How the data were processed

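RNA sequencing libraries of brown adipose tissue, 1 per mouse and 3 per genotype label, were compared. The authors deposited read counts per gene symbol; per the submitters' processing notes the build was mm10 and the tools were STAR 2.7.2b, Bowtie2 2.3.4.3, HTSeq, SAMtools 1.9, edgeR and Trim Galore; the roles of these tools, the annotation and the strand setting were not given in the sources used here. From these counts, without the 5 closing lines that name no gene, edgeR 4.0.16 in R 4.3.3 was fitted to all genes: TMM scaling, filterByExpr (minimum count 10, minimum total 15), robust quasi-likelihood F test on genotype, Benjamini-Hochberg adjustment at 0.05. The fit was also run on simulated counts with known changes, and the outcome is not reported here. Reads aligned to several places, 21.8% to 23.9% of each heterozygous-labelled column and 17.6% to 19.8% of each knockout-labelled one, were outside the gene counts, which can lower genes with near-identical copies. Replicates were numbered in accession order, which pairs nothing. Log2 ratios within prefixes used 0.5 CPM added. Lengths, 3′ UTRs and positions came from GENCODE M21 (GRCm38), promoters from RefSeq (GRCm38.p6). Exons of 11 of the 34 genes overlap a gene on the opposite strand and 6 one on the same strand, so their reads may be shared or set aside. The members, the lists and the rule for named genes (all 34; library values for the 5 smallest p of each set and 10 chosen by role; up to 4 of each other list) were chosen with earlier results of these data known. Some genes that this rule names are not reported here. Alternatives were other scalings, filters and tools, each library left out, the prefix as covariate, RF-titled libraries alone and muscle genes left out of library sizes.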

Additional observations from a re-analysis of the deposited data

How the results depend on the processing

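None of the 34 genes passed an adjusted p of 0.05 under any alternative run; the smallest adjusted p ranged from 0.0711 (DESeq2) to 0.606 (without heterozygous 2). Of the values of single genes under alternatives, 447 kept their direction and 63 changed sign. With RF-titled libraries alone, the log2 fold changes that changed sign were G3bp1 0.0087, Caprin1 -0.0985, Ddx3x -0.16, Ybx1 -0.0981, Nufip2 -0.15, Lsm14b 0.0135, Dcp1a -0.0562 and Dcp2 0.021. With limma-voom they were G3bp1 0.0076, Caprin1 -0.0365, Ddx3x -0.0158, Ybx1 -0.0487, Nufip2 -0.0934 and Dcp1a -0.0047. With library size alone they were Caprin1 -0.0399, Ybx1 -0.0253, Nufip2 -0.0168, Lsm1 -0.0296 and Eif4enif1 -0.0063. Caprin1 was at -0.0003 with RLE scaling, -0.0017 with a mean CPM of at least 1 and -0.0004 with muscle markers out of the library sizes. Lsm1 was at -0.001 with that CPM limit, -0.0006 without muscle markers and -0.0425 with the prefix as covariate. Edc4 was at 0.0072 without a filter and 0.002 with DESeq2. Leaving out each library in turn gave ranges that crossed 0 for 20 genes: Fmr1 -0.17 to 0.006, Nufip2 -0.32 to 0.29, Pum2 -0.13 to 0.05, Edc4 -0.0475 to 0.0342, Dcp2 -0.19 to 0.0689, G3bp1 -0.0709 to 0.0718, G3bp2 -0.32 to 0.12, Lsm14a -0.0762 to 0.05, Tial1 -0.005 to 0.15, Caprin1 -0.21 to 0.14, Lsm1 -0.25 to 0.25, Eif4enif1 -0.0876 to 0.14, Pabpc1 -0.24 to 0.0729, Xrn1 -0.48 to 0.20, Ddx3x -0.0986 to 0.43, Ybx1 -0.11 to 0.10, Stau1 -0.25 to 0.0033, Lsm14b -0.25 to 0.0491, Dcp1a -0.0318 to 0.17 and Zfp36 -0.0607 to 0.54. The P-body median ranged from -0.12 (without knockout 1) to -0.0272 on leaving out a library, and the granule minus P-body median was -0.11 with RF-titled libraries alone; the cause was not tested. The number of all genes called moved from 78 to 0 to 400 on leaving out a library, 750 with DESeq2, 311 with the prefix as covariate, 194 with limma-voom and 132 with RF-titled libraries alone. No paired analysis was possible because the replicate numbers were given in accession order and pair nothing. The lowest member in CPM, Dcp1b, rested on 73 to 136 reads per library. The length alternative for the ratios was chosen after seeing the data.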
